A study of Mus musculus with 12 samples.

Results

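The genes described here are 10 genes of the TGF-beta and myofibroblast programme in mouse gonadal white adipose tissue (GWAT): the ligand genes Tgfb1, Tgfb2 and Tgfb3, the receptor gene Tgfbr1, and Tgfbi, Acta2, Tagln, Postn, Ccn2 and Lox. They were chosen by symbol from the table of estimated counts, which lists 55281 genes, and each symbol matched 1 row. TGF-beta ligands are secreted in a latent form, are released in the extracellular matrix, and then join type II and type I receptors that phosphorylate SMAD2 and SMAD3. In fat and other tissues this pathway drives fibroblasts and mural cells toward the myofibroblast, a contractile cell that carries alpha smooth muscle actin and lays down and cross-links collagen. Adipose fibrosis of this kind is a known feature of obese fat depots.

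GWAT was collected from male mice aged 22 to 24 weeks that had eaten either a control diet (CD, 14% fat by the labels, with a slightly lower figure in the methods) or a high-fat diet (HFD, 60% fat) for 16 weeks from the age of 6 weeks. All mice were Hoip fl/fl, those called HoipA-KO were also AdipoQ.Cre+ and those called WT were AdipoQ.Cre-. Cre was driven by the promoter of adiponectin, which is known for its activity in mature adipocytes, not in the other cells of the tissue. There were 4 groups of 3 libraries, and each library held pooled RNA of 3 mice. The spread between libraries is therefore the spread between pools, and nothing in the labels says whether pools shared a litter or a day.

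Library totals lay between 30513500 and 60540260 estimated counts. Levels are given as CPM, which are counts scaled to a common library size with TMM over the 12 libraries, and a count of 3 was worth at most 0.0983 CPM, far under every level of the 10 genes. Fitted changes come from edgeR's quasi-likelihood test over 18427 genes in 11 libraries, without WT CD replicate 3, which the authors' own comparisons of this tissue also leave out. In that library 3805 genes, with 19.8% of its counts, stood over 8 times above every other library. In WT CD replicate 2 the same held for 369 genes with 6.84% of the counts, among them epididymal genes. It stayed in the fit, where replicate 1 was the only other WT CD library. All comparisons with WT CD in that fit, and the interaction, therefore rest in part on replicate 2. In HoipA-KO HFD replicate 1, 58 genes with 1.12% of the counts stood over 8 times above every other library. Acta2 and Tagln were also high in HoipA-KO HFD replicate 1 but not among these 58, at 3.71 and 4.39 times the highest other library. Rnf31, the gene that encodes HOIP, had 12.8 to 21.2 CPM in the WT CD libraries, 18.2 to 20.0 in WT HFD, 17.7 to 21.8 in HoipA-KO CD and 18.8 to 22.5 in HoipA-KO HFD, with overlap between all groups. This count covers the whole gene in all cells of the depot, so it does not check the genotype labels. The tissue was recognisable as fat, though not as gonadal fat, by its adipocyte markers, which were detected in every library. Their summed level was 13895 to 49304 CPM in WT CD, 21878 to 29523 in WT HFD, 6086 to 9208 in HoipA-KO CD and 5486 to 8111 in HoipA-KO HFD.

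The 10 genes separated into those that rose with HoipA-KO on CD and with HFD in WT, namely Tgfb1, Tgfbi, Postn and Lox, and those that edgeR called in no comparison, namely Tgfb2, Tgfb3, Acta2, Tagln and Ccn2. Tgfbr1 rose in HoipA-KO on CD. Only Tgfb1 and Tgfbi were also higher in HoipA-KO than in WT on HFD, and no gene of the 10 differed between diets in HoipA-KO. All 10 passed the filter on low counts. Where groups are said below not to overlap, the share of all genes that separate in the same way was not counted. HoipA-KO CD and WT HFD were both compared with the same WT CD libraries, so the 2 sets of changes are not independent of each other and their values are given side by side only.

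**Figure D1:**
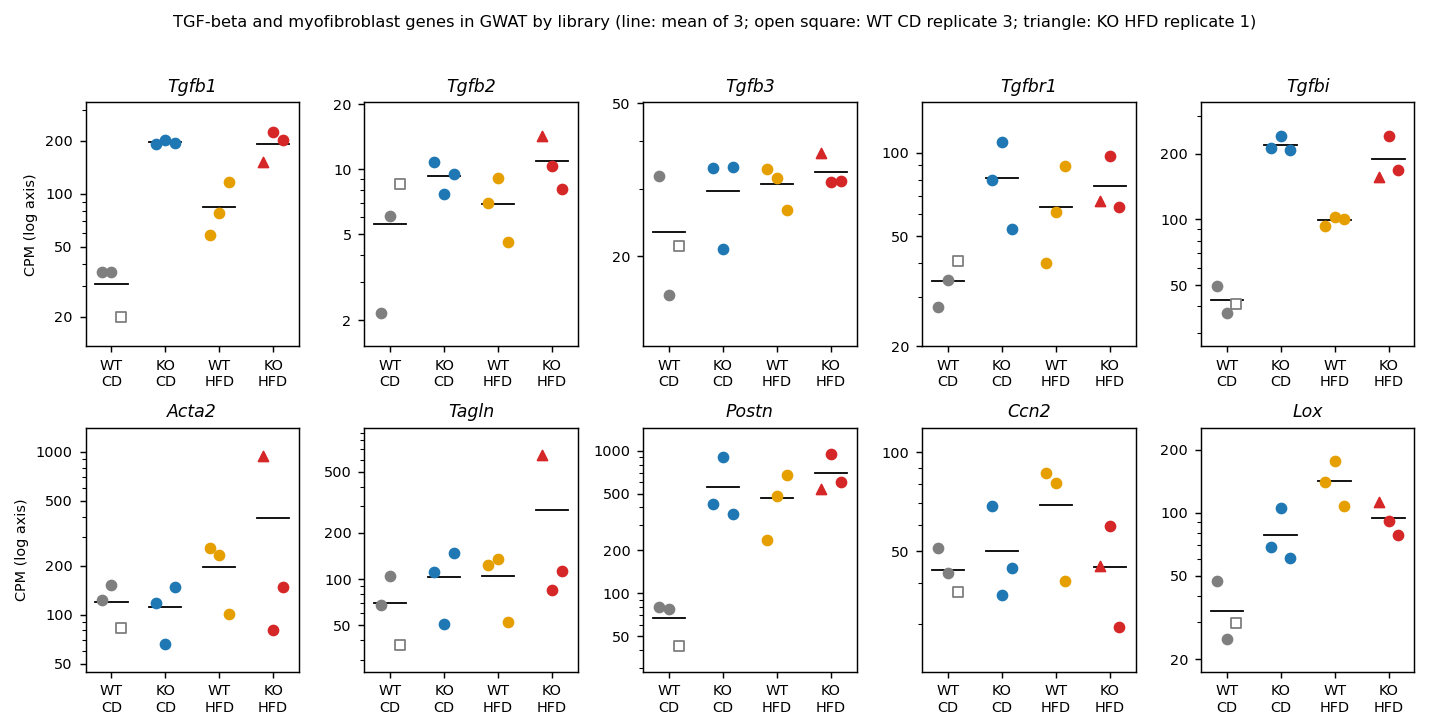
CPM of the 10 genes in each of the 12 libraries, on a log axis, by genotype and diet. Points are libraries and lines are means of 3, the open square is WT CD replicate 3 and the triangle is HoipA-KO HFD replicate 1. The 3 WT CD libraries sit below every other library for Tgfb1, Tgfbi, Postn and Lox, and the share of all genes that do so was not counted. The single high points for Acta2 (946) and Tagln (645) are HoipA-KO HFD replicate 1.

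Among the ligands, Tgfb1, the ligand most often studied in fibrosis and also made by macrophages, was 5.62-fold higher in HoipA-KO than in WT on CD, while Tgfb2 and Tgfb3 were not called in any comparison. Tgfb1 (chromosome 7, 25687002 to 25705077 on the plus strand, GRCm38) had 36.0, 36.1 and 19.9 CPM in replicates 1 to 3 of WT CD and 193, 203 and 194 in HoipA-KO CD. It had 57.9, 77.9 and 116 CPM in WT HFD and 151, 225 and 201 in HoipA-KO HFD. The WT CD libraries were lowest, those of WT HFD came next, and the 6 HoipA-KO libraries were highest, with no overlap between these 3 sets. The log2 fold change of Tgfb1 was 2.49 (SE 0.30) for HoipA-KO against WT on CD, and edgeR's adjusted p (Benjamini-Hochberg, over all genes tested) was 0.00054. On HFD it was 1.21 (SE 0.25, edgeR adjusted p = 0.0198), and with all 12 libraries the same comparison gave 1.19 with an edgeR adjusted p of 0.0581, which no longer passed. For HFD against CD in WT it was 1.23 (SE 0.28, edgeR adjusted p = 0.0221). The call on HFD was lost without WT HFD replicate 1, WT HFD replicate 2, HoipA-KO HFD replicate 2 or HoipA-KO HFD replicate 3, with log2 fold changes of Tgfb1 between 1.01 and 1.18, and the diet call in WT was lost without WT CD replicate 2 (1.24), WT HFD replicate 2 (1.29) or WT HFD replicate 3 (0.82).

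Tgfb2, a ligand known from mesenchymal and epithelial cells, was the lowest of the 10 per kilobase of exon in every group. Its level was 2.17, 6.08 and 8.55 CPM in WT CD, 6.97, 9.15 and 4.61 in WT HFD, 10.9, 7.66 and 9.50 in HoipA-KO CD, and 14.3, 10.3 and 8.14 in HoipA-KO HFD. The groups overlapped in every comparison, and the log2 fold change for HoipA-KO against WT on CD was 1.22 (SE 0.45, edgeR adjusted p = 0.0568) in 11 libraries and 0.74 (adjusted p = 0.227) in 12. DESeq2 gave Tgfb2 1.16 with an adjusted p of 0.0327 on CD, and edgeR called it without WT CD replicate 2 (2.15). Tgfb3, a ligand of mesenchymal cells, had 32.4, 15.8 and 21.3 CPM in WT CD, 33.8, 32.0 and 26.4 in WT HFD, 33.9, 20.9 and 34.1 in HoipA-KO CD, and 37.1, 31.1 and 31.4 in HoipA-KO HFD. These groups overlapped as well, and the log2 fold change of Tgfb3 for HoipA-KO against WT on CD was 0.33 (SE 0.30). Without WT CD replicate 1, the highest of that group, edgeR called Tgfb3 on CD (0.94) and with diet in WT (0.99). Per kilobase of exon sequence, the mean levels of Tgfb1 and Tgfb3 in WT CD were 6.09 and 6.86 CPM per kb, against 39.0 and 8.76 in HoipA-KO CD. Tgfb2 lay at 0.967 and 1.61 CPM per kb in the same groups.

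The 250 bases before the start of transcription are shown for Tgfb1 and Postn, which rose together, and for Tgfb2, which did not pass the test, because these 3 starts lie within 3 bases of the gene ends in the annotation used for the loci. For Postn this is 1 of 2 windows of the table, and the other held CAGAC at -191 and no TATAAA. Sequences are those of RefSeq on GRCm38.p6, in which 6 of the 10 genes were matched, and they run 5′ to 3′ on the strand of the gene. Capitals mark matches to TATAAA, the core of a TATA box, and to CAGAC, a short SMAD-binding sequence, each searched on both strands.
Tgfb1, chr7:25686752-25687001, plus strand: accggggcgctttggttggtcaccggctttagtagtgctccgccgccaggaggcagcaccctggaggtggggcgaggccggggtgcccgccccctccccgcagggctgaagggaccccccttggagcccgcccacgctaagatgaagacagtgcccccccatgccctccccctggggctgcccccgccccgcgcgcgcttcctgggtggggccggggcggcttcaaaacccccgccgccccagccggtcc
Tgfb2, chr1:186705990-186706239, minus strand: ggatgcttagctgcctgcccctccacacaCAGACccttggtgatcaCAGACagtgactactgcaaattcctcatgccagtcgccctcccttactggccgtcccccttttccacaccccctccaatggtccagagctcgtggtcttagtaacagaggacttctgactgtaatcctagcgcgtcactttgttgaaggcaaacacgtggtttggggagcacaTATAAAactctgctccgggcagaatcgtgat
Postn, chr3:54360857-54361106, plus strand: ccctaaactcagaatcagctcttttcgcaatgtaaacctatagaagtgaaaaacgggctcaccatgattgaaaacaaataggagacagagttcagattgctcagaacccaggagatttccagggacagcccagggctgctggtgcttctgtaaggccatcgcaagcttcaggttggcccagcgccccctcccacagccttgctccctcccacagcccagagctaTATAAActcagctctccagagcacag
Tgfb2 and Postn held TATAAA, 31 and 26 bases before the start, as did 12.37% of the 32851 promoter windows of this length. CAGAC occurred at -221 and -204 in Tgfb2 and in 42.19% of all windows. In the Tgfb1 window neither run of letters was found, which says only that they are not in these bases, and it is rich in g and c.

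Tgfbr1, the type I receptor kinase that phosphorylates SMAD2 and SMAD3, rose in HoipA-KO on CD. It had 27.8, 34.5 and 40.5 CPM in WT CD and 79.9, 109 and 53.2 in HoipA-KO CD, and these groups did not overlap. The levels in WT HFD were 39.9, 61.1 and 89.4 CPM and those in HoipA-KO HFD were 66.8, 97.2 and 63.7, which overlapped. The log2 fold change on CD was 1.43 (SE 0.40, edgeR adjusted p = 0.0200), and that on HFD was 0.28 (SE 0.34, edgeR adjusted p = 0.599). The diet change in WT was 1.04 (SE 0.39, edgeR adjusted p = 0.102). The call on CD was lost without WT CD replicate 1, WT CD replicate 2 or HoipA-KO CD replicate 2, with values between 1.12 and 1.59.

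Tgfbi, a secreted matrix protein named for its induction by TGF-beta, rose in 3 comparisons. Tgfbi (chromosome 13, 56609523 to 56639562, plus strand, GRCm38) had 49.7, 37.3 and 41.0 CPM in WT CD, 93.8, 103 and 101 in WT HFD, 214, 241 and 208 in HoipA-KO CD, and 157, 242 and 168 in HoipA-KO HFD. The order was WT CD, then WT HFD, then all HoipA-KO libraries, again with no overlap between these sets, while HoipA-KO CD and HoipA-KO HFD overlapped. The log2 fold change was 2.39 (SE 0.24) for HoipA-KO against WT on CD, an edgeR adjusted p of 0.000452, and 0.95 (SE 0.20, edgeR adjusted p = 0.0202) on HFD. For HFD against CD in WT it was 1.20 (SE 0.23, edgeR adjusted p = 0.0104). Tgfbi was the only gene of the 10 whose genotype effect differed between diets by the interaction term, at -1.44 (SE 0.30, edgeR adjusted p = 0.0337), where 3.58% of all genes tested were called lower. The genotype call of Tgfbi on HFD was lost without WT HFD replicate 1, WT HFD replicate 2 or HoipA-KO HFD replicate 2 (0.72 to 0.97), and its diet call in WT without WT CD replicate 2 (1.01). Its interaction passed without WT CD replicate 1, WT HFD replicate 1 or HoipA-KO HFD replicate 2, and did not pass without any 1 of the other 8 libraries (-1.47 to -1.21). Interaction values for Tgfb1, Postn and Lox were -1.28, -2.28 and -1.74, with edgeR adjusted p of 0.0887, 0.0977 and 0.0717, and DESeq2 called all 3 beside Tgfbi.

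The contractile genes gave another picture. Acta2 (chromosome 19, 34241090 to 34255590, minus strand, GRCm38) encodes alpha smooth muscle actin, the usual marker of myofibroblasts. It had 123, 152 and 82.4 CPM in WT CD, 255, 232 and 101 in WT HFD and 119, 66.2 and 148 in HoipA-KO CD. In HoipA-KO HFD it had 946, 80.8 and 148 CPM. Replicate 1 of that group was 3.71 times the highest of the other 11 libraries, and the other 2 replicates lay within the range of the other groups. Tagln, the actin-binding protein transgelin, had 68.3, 105 and 37.5 CPM in WT CD, 123, 136 and 53.0 in WT HFD, 111, 50.9 and 147 in HoipA-KO CD, and 645, 85.3 and 113 in HoipA-KO HFD, with the same library apart from the rest. No group separated from another for either gene.

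For HoipA-KO against WT on CD the log2 fold change of Acta2 was -0.27 (SE 0.85, edgeR adjusted p = 0.822) and that of Tagln was 0.28 (SE 0.81, edgeR adjusted p = 0.808). On HFD the values were 1.00 (SE 0.77, edgeR adjusted p = 0.399) for Acta2 and 1.43 (SE 0.73, edgeR adjusted p = 0.210) for Tagln. Without HoipA-KO HFD replicate 1 they were -0.74 and -0.04, so the direction of both turned on that library. These SEs were wide beside those of Tgfb1 and Tgfbi.

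The 12 contractile genes listed, which include Acta2 and Tagln, moved as a block in HoipA-KO HFD replicate 1. Myh11, the smooth muscle myosin heavy chain, had 1448 CPM there and between 33.1 and 94.1 in the other 11 libraries. Cnn1 (calponin) had 504 CPM against at most 17.3 elsewhere, Tpm1 537 against at most 179, and Cald1 (caldesmon) 466 against at most 293. Actg2, enteric smooth muscle actin, had 492 CPM there, 106 in WT CD replicate 3, which is not in the main fit, and at most 12.5 in the rest. Cnn1 and Actg2 are not among the 3 most abundant of this list and were named after their values were seen. The ratio of Acta2 to Myh11 was 0.653 in this library and between 1.51 and 3.05 in the others. None of the 12 was called by edgeR in any comparison, with 6 of them higher at an unadjusted p under 0.05 in HoipA-KO HFD against WT HFD and none in HoipA-KO CD against WT CD.

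**Figure D2:**
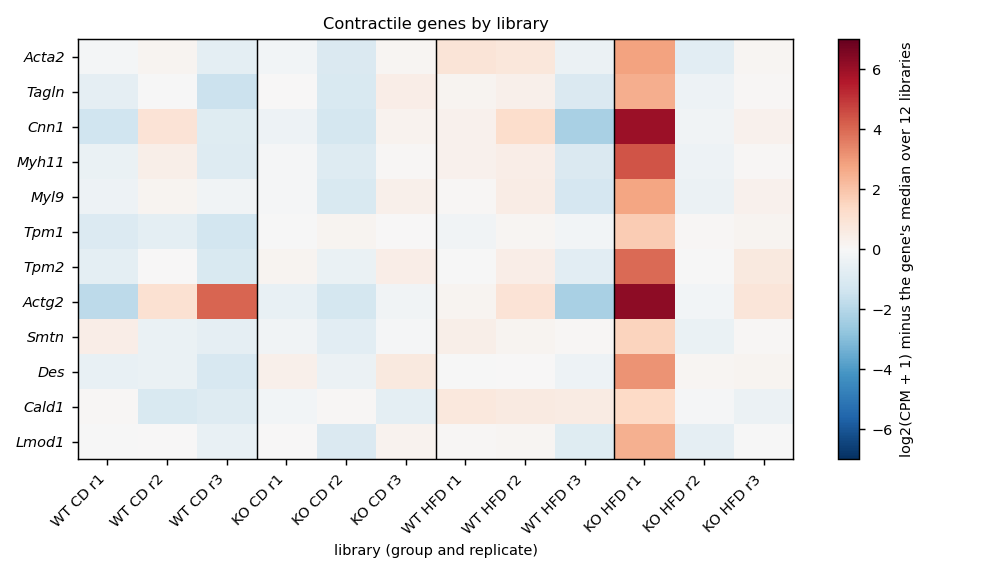
Contractile genes (rows) in the 12 libraries (columns, ordered by group), coloured by log2(CPM + 1) minus the median of the gene over the 12 libraries. HoipA-KO HFD replicate 1 is the highest library in all 12 rows, and Actg2 is also high in WT CD replicate 3.

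The summed level of 6 smooth muscle markers in this library was 3066 CPM, against 192 and 212 in HoipA-KO HFD replicates 2 and 3 and at most 764 in any other library, but 5 of these 6 are among the contractile genes above. The remaining one, Synpo2, had 233 CPM there and 82.2 and 69.6 in replicates 2 and 3 of the same group. It had 89.0 to 130 CPM in HoipA-KO CD, 40.7 to 152 in WT CD and 348 to 621 in WT HFD. Single genes of other tissues were also high in this library, namely Crisp1 of the epididymis at 1309 CPM and the skeletal muscle genes Acta1 at 106 and Ckm at 39.3. The other epididymal markers listed had at most 2.10 CPM there, and the other skeletal muscle markers at most 3.96. Crisp1 had 12605 CPM in WT CD replicate 2. What part other tissues have in the Acta2 and Tagln values was not tested.

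Postn, periostin, a matricellular protein that binds collagen, had the largest fitted change of the 10 in HoipA-KO on CD and with diet in WT. Postn (chromosome 3, 54361109 to 54391037, plus strand, GRCm38) had 79.9, 77.3 and 42.8 CPM in WT CD, 237, 485 and 676 in WT HFD, 421, 902 and 359 in HoipA-KO CD, and 542, 956 and 602 in HoipA-KO HFD. Every other library was above the WT CD libraries by a wide margin, and the remaining 3 groups overlapped with each other. The log2 fold change was 2.89 (SE 0.57, edgeR adjusted p = 0.00407) for HoipA-KO against WT on CD and 2.58 (SE 0.56, edgeR adjusted p = 0.0171) for HFD against CD in WT. Between genotypes on HFD it was 0.61 (SE 0.45, edgeR adjusted p = 0.376). The diet call of Postn in WT was lost without WT CD replicate 2 (2.56) or WT HFD replicate 3 (2.11). Per kilobase, Postn went from 7.66 CPM per kb in WT CD to 64.4 in HoipA-KO CD, while WT HFD had 53.6 and HoipA-KO HFD 80.4. On the same scale Acta2 was at 54.2 in WT CD, 50.5 in HoipA-KO CD and 89.2 in WT HFD, and the mean of 178 in HoipA-KO HFD holds its 1 high library.

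Ccn2, connective tissue growth factor, an immediate target of TGF-beta and YAP signalling, stayed within the spread of the libraries. It had 51.2, 43.0 and 37.7 CPM in WT CD, 86.7, 80.7 and 40.8 in WT HFD, 68.8, 36.8 and 44.4 in HoipA-KO CD, and 45.2, 59.9 and 29.6 in HoipA-KO HFD. All groups overlapped, with 2 of the 3 WT HFD libraries highest. Its log2 fold change was 0.13 (SE 0.39) for HoipA-KO against WT on CD, -0.61 (SE 0.35, edgeR adjusted p = 0.254) on HFD and 0.57 (SE 0.39, edgeR adjusted p = 0.346) for diet in WT.

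Lox, lysyl oxidase, which cross-links collagen and elastin, was highest in WT HFD. It had 47.1, 25.0 and 29.6 CPM in WT CD, 141, 178 and 107 in WT HFD, 68.4, 105 and 60.5 in HoipA-KO CD, and 113, 91.3 and 78.6 in HoipA-KO HFD. The WT CD libraries were below all others, and those of WT HFD were above those of HoipA-KO CD. The log2 fold change was 1.99 (SE 0.37, edgeR adjusted p = 0.00951) for HFD against CD in WT and 1.16 (SE 0.35, edgeR adjusted p = 0.0278) for HoipA-KO against WT on CD. On HFD the genotypes differed by -0.58 (SE 0.30, edgeR adjusted p = 0.223). The genotype call on CD was lost without WT CD replicate 2 (0.78) or HoipA-KO CD replicate 2 (0.86) and with only these groups fitted (1.22, edgeR adjusted p = 0.0590), and the diet call in WT without WT CD replicate 2 (1.60).

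**Figure D3:**
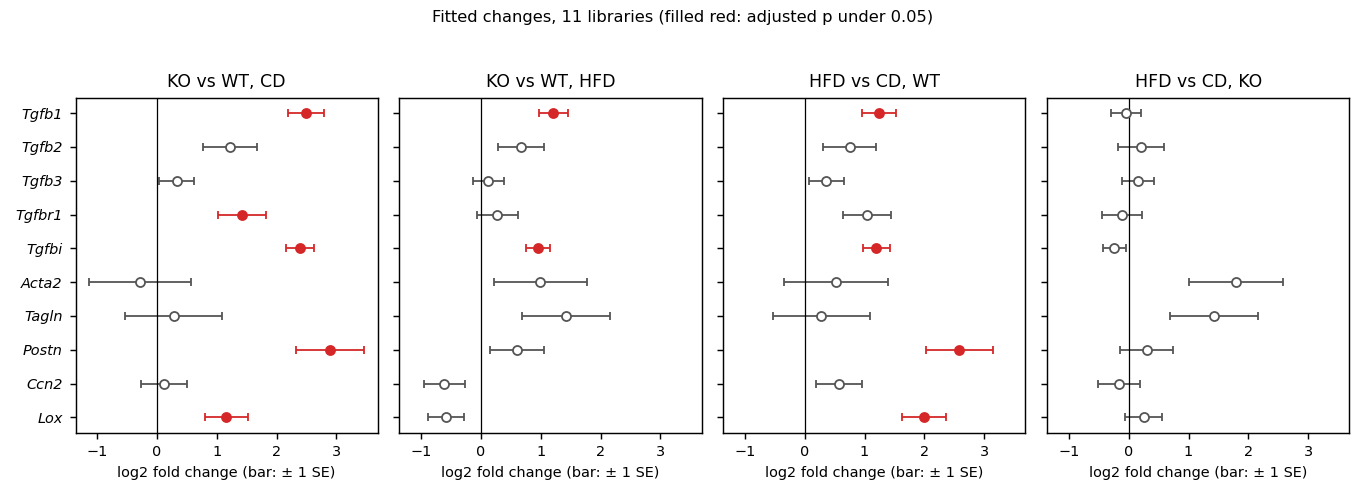
Fitted log2 fold changes of the 10 genes with bars of 1 SE, in the 4 comparisons of 11 libraries. Filled red points passed an adjusted p of 0.05: 5 genes between genotypes on CD, 2 between genotypes on HFD, 4 for HFD against CD in WT and 0 for HFD against CD in HoipA-KO.

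Counted together, 5 of the 10 genes rose in HoipA-KO against WT on CD and none fell, where 18.9% of all genes tested were called higher and 18.8% lower by edgeR. On HFD 2 rose and none fell, against 4.2% higher and 7.62% lower over all genes. For HFD against CD in WT 4 rose and none fell, against 9.35% and 5.47%. Fitted on the WT libraries alone, with 2 on CD and 3 on HFD, edgeR called none of these 4 (adjusted p between 0.0861 and 0.120) and none of all genes. In HoipA-KO no gene of the 10 was called between diets, nor was any of the 18427 genes (0%), with 1 of the 10 (Acta2) and 415 of all genes at an unadjusted p under 0.05. DESeq2 called 7 genes there, none of them among the 10. With all 12 libraries the same 3 counts of genes called higher were 5, 1 and 4, where 15.6%, 0.531% and 9.05% of all genes were. The median log2 fold change of the 10 was 1.19 on CD, 0.64 on HFD and 0.90 for diet in WT, beside medians over all genes of -0.06, 0.06 and 0.00.

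Tgfb1 and Tgfbi moved with the macrophage markers of the tissue. The summed level of the 9 macrophage markers, all detected in every library, was 483 to 781 CPM in WT CD, 2023 to 5973 in WT HFD, 9509 to 12100.3 in HoipA-KO CD and 7677 to 11373 in HoipA-KO HFD, which is the order of Tgfb1 and Tgfbi. Of these markers 8 rose in HoipA-KO on CD, 5 on HFD and 8 with diet in WT, and with all 12 libraries none was called on HFD. Adipocyte markers fell in HoipA-KO, 9 of 10 on CD and 10 of 10 on HFD, or 8 and 7 with all 12 libraries. Fibroblast and progenitor markers rose for 3 of 8 on CD (Pdgfra, Dcn and Lum), for none on HFD and for 3 with diet in WT. Of 7 pericyte markers, Rgs5, Abcc9 and Higd1b fell and Pdgfrb rose on CD, Cspg4 fell on HFD, and Pdgfrb rose with diet in WT. Of 6 endothelial markers, Cdh5 and Kdr fell on CD, and Cdh5, Kdr and Tek on HFD. With all 12 libraries Abcc9 and Cdh5 were not called on CD, and no pericyte or endothelial marker was called on HFD. In whole tissue, a change in the share of a cell type and a change in RNA per cell cannot be told apart, and what part these shifts have in the changes of Tgfb1, Tgfbi, Postn and Lox was not tested.

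**Figure D4:**
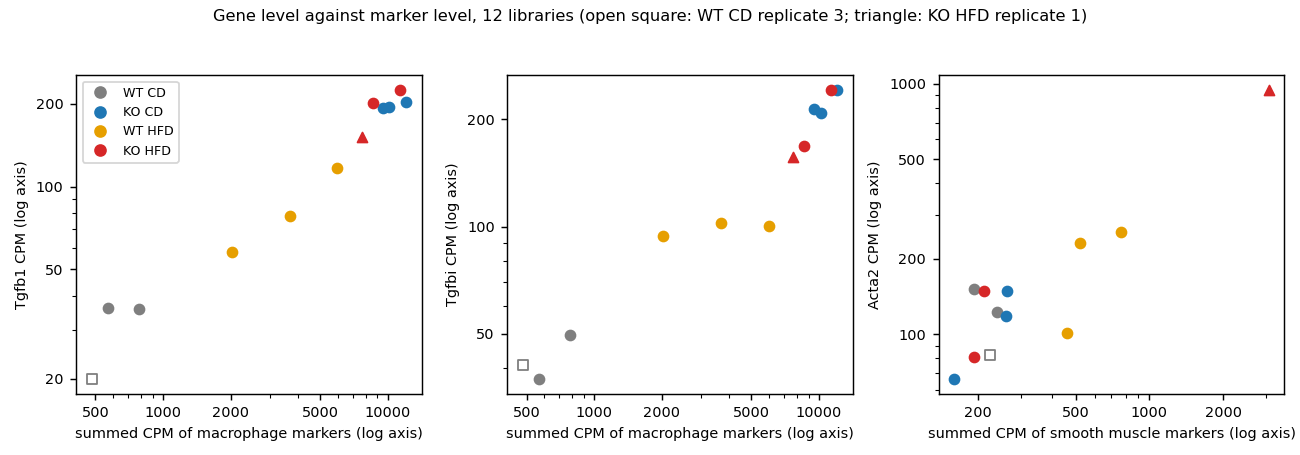
CPM of Tgfb1 and Tgfbi against the summed CPM of 9 macrophage markers, and of Acta2 against that of 6 smooth muscle markers, in the 12 libraries on log axes. Tgfb1 and Tgfbi lie in the order of the groups, from WT CD at 483 to 781 CPM of macrophage markers to HoipA-KO at 7677 and above, and Acta2 has 1 library far to the right, HoipA-KO HFD replicate 1 at 3066 CPM, where 5 of the 6 markers are also among the 12 contractile genes.

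The gene most like each of the 10 in pattern was found by the Pearson correlation of log2(CPM + 1) over the 12 libraries, among 10387 genes with a mean of at least 10 CPM. These values describe 12 libraries in 4 groups and rest in part on the differences between groups. For Tgfb1 it was Grn (progranulin, r = 0.998) and for Tgfbi it was S100a4 (r = 0.991). For Tgfbr1 it was Jmjd1c (r = 0.971), for Postn Col6a3, a chain of type VI collagen (r = 0.989), and for Lox Palld, the actin-associated protein palladin (r = 0.965). Acta2 was most like Lmod1, leiomodin (r = 0.943, and 0.813 without HoipA-KO HFD replicate 1), and Tagln most like Tpm2 (r = 0.958, and 0.916 without that library), both smooth muscle genes. For Tgfb2, Tgfb3 and Ccn2 the genes were Dkk3 (r = 0.880), Ptgis (r = 0.927) and Fmo2 (r = 0.904). Within the 10, Tgfb1 and Tgfbi had r = 0.964, Tgfb1 and Postn 0.919, and Acta2 and Tagln 0.924, while Tgfb1 and Acta2 had 0.029.

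The other genes of the pathway were taken from lists by role, 86 genes beyond the 10, all of them tested. In HoipA-KO against WT on CD 24 rose and 6 fell (against 18.9% and 18.8% of all genes tested). On HFD 4 rose and 8 fell (against 4.2% and 7.62%), shares of the 86 close to the background. For HFD against CD in WT 27 rose and 1 fell (against 9.35% and 5.47%). With all 12 libraries 26 rose and 3 fell on CD, where Itgb6, Bmpr1a and Tead1 were no longer called, and on HFD only Cthrc1 rose and only Inhbb and Wwtr1 fell, so that the other 9 genes called there and named below passed in 11 libraries only. For diet in WT these counts were 29 and 1, without Mrtfa, Cthrc1 and Ccn4. The shares of all genes given in this paragraph also stand beside the counts of each list below. Genes named from here on beyond the 3 most abundant of each list were named after their values were seen.

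The matrix lists held most of the genes that rose. Of 5 lysyl oxidases, 4 rose in HoipA-KO on CD (Lox, Loxl1, Loxl2 and Loxl3) and the same 4 with diet in WT, and none was called on HFD. Loxl2 had a log2 fold change of 2.56 (SE 0.42, edgeR adjusted p = 0.00168) on CD. Of 6 fibrillar collagens, 5 rose on CD and 5 with diet in WT, and only Col1a2 was called on HFD, at 0.93 (SE 0.25, edgeR adjusted p = 0.0424). Col1a1, a chain of type I collagen, had 129 to 171 CPM in WT CD (replicates 1 and 2) and 821 to 1359.5 in HoipA-KO CD, a log2 fold change of 2.87 (SE 0.34). Of 15 matricellular genes, 8 rose on CD and 10 with diet in WT, while on HFD Tgfbi and Cthrc1 rose and Ccn5 fell. Fn1, fibronectin, rose by 2.54 (SE 0.30) on CD on the log2 scale and 6.51-fold with diet in WT, and on HFD the genotypes differed by -0.17 (SE 0.24, log2). Sparc, which binds collagen, rose with diet in WT (1.29, SE 0.34, edgeR adjusted p = 0.0351) and was not called on CD (0.32, SE 0.33).

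Among 5 receptor genes, Tgfbr1 and Tgfbr2 rose on CD. Tgfbr2, the type II receptor that binds the ligand, changed by 1.23 (SE 0.27, edgeR adjusted p = 0.00714), and the co-receptor genes Eng and Tgfbr3 had 0.01 and -0.38. Among 12 genes of latency and activation, Nrros, which holds latent TGF-beta 1 on myeloid cells, and Itgb5 rose on CD, and Itgb6 fell. Itgb6, an integrin subunit of epithelia, had 6.64 CPM in WT CD replicate 2 and at most 0.371 in every other library, and that library also held 15829 CPM of epididymal markers. On HFD Ltbp3, a latent TGF-beta binding protein, was lower in HoipA-KO at -0.91 (SE 0.26, edgeR adjusted p = 0.0479). Among 12 SMADs and regulators only Tgif1 rose on CD. Pmepa1, a feedback inhibitor induced by TGF-beta, rose with diet in WT by 1.96 (SE 0.50, edgeR adjusted p = 0.0315) and was lower in HoipA-KO than in WT on HFD by -1.67 (SE 0.43, edgeR adjusted p = 0.0377). It had 262 to 412 CPM in WT HFD and 56.6 to 137 in HoipA-KO HFD, with no overlap.

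Of 12 genes known to be induced by TGF-beta, 3 rose in HoipA-KO on CD (Tgfbi, Cdkn1a and Klf10), where 18.9% of all genes tested did. With diet in WT 4 rose (Tgfbi, Cdkn1a, Ltbp2 and Tnc), where 9.35% of all genes did. Between genotypes on HFD only Tgfbi was called, and 3 of the 12 were lower at an unadjusted edgeR p under 0.05. The median log2 fold change of this list on HFD was -0.52. Ccn1, a relative of Ccn2, had 0.23 (SE 0.34) on CD and -0.72 (SE 0.30, edgeR adjusted p = 0.139) on HFD. Among 8 genes listed for SRF, YAP and their partners, Mrtfa and Mrtfb rose and Yap1 and Tead1 fell on CD. On HFD Mrtfa rose and Yap1 and Wwtr1, which encodes TAZ, fell. Over all genes tested 18.9% were called higher and 18.8% lower on CD, and 4.2% and 7.62% on HFD. Yap1 fell by 1.33 on CD (SE 0.24, edgeR adjusted p = 0.00246) and by 0.84 on HFD (SE 0.22, edgeR adjusted p = 0.0377) on the log2 scale. Of 12 genes of the BMP and activin arm, Bmp6, Inhbb and the receptor gene Bmpr1a fell in HoipA-KO on both diets in 11 libraries, Fst rose on both, and Fstl1 rose on CD. With all 12 libraries Inhbb was the only gene of this arm called on HFD, and Wwtr1 the only gene of the SRF and YAP list.

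**Figure D5:**
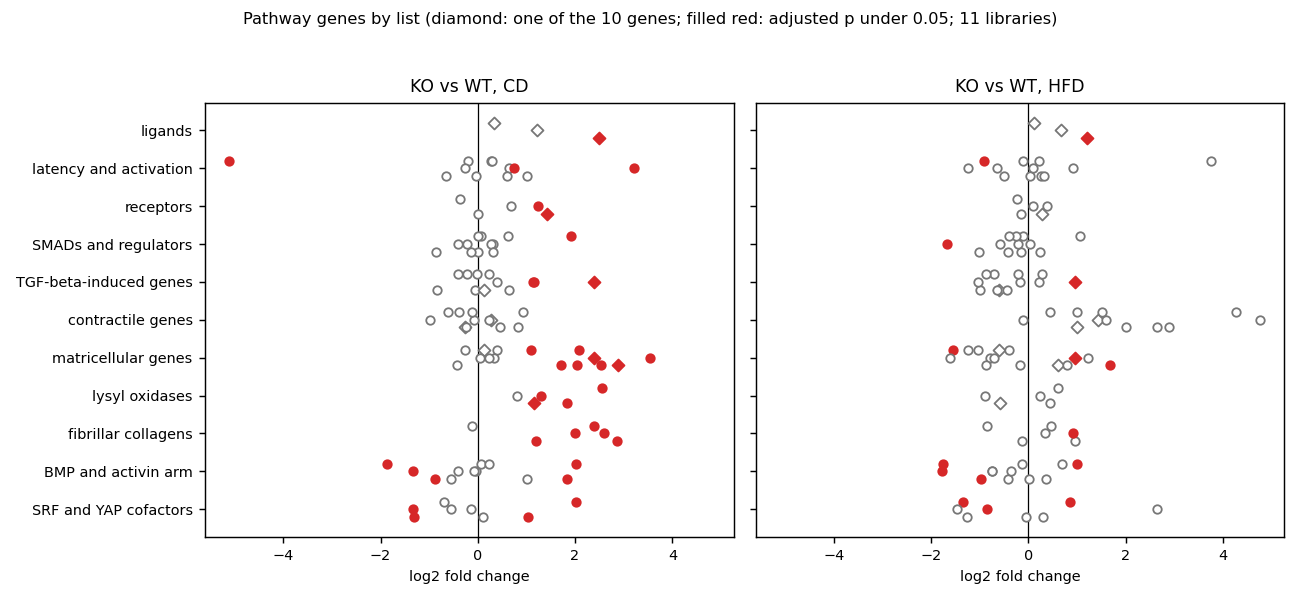
Fitted log2 fold changes of the genes of each list for HoipA-KO against WT on CD (left) and on HFD (right), in 11 libraries. Diamonds are the 10 genes and filled red points passed an adjusted p of 0.05: 24 of the 86 other genes rose on CD and 4 on HFD, and the contractile genes far to the right on HFD did not pass.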

How the data were processed

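Bulk RNA of GWAT was sequenced after poly-A selection with a stranded kit. The authors' processing notes name Trim Galore 0.6.7, STAR 2.7.10a, Salmon 1.5.2 and GRCm38, while the methods print a human assembly. Gene identifiers are those of mouse. The authors deposited estimated counts per gene from Salmon, without normalization, for all genes and for protein-coding genes, and these expected counts were rounded here. The authors also deposited DESeq2 tables (log2 fold changes, p-values and CPM), which were not used.

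Counts were tested with edgeR 4.0.16 in R 4.3.3 (glmQLFit and glmQLFTest, filterByExpr with a minimum count of 10, TMM, 1 mean per group) in 11 libraries, with Benjamini-Hochberg adjustment over all genes at 0.05. The fit was tested on simulated data. The interaction is the genotype change on HFD minus that on CD. Alternatives were all 12 libraries, other scalings and filters, protein-coding genes, only the groups compared, DESeq2 1.42.0, a replicate block and each library left out. Loci and exon lengths are from GENCODE M21. Library totals were 30513500 to 60540260 counts, so the spread between pools and not counting set the precision. No p-value measures more than that spread.

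The 10 genes, the pathway lists and the marker lists were chosen with earlier results of these data known. From each list the 3 genes with the highest mean CPM that are not among the 10 were to be named, and for each of the 10 the gene most alike in pattern. Of these, 1 gene is not reported here.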

Additional observations from a re-analysis of the deposited data

Results flagged for a closer look

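The genotype effect differed between diets, by the interaction term (edgeR's quasi-likelihood test, Benjamini-Hochberg adjusted over all genes), for 6 genes among the 10 and the 3 most abundant genes of each pathway list, and in each it was lower on HFD. This term called 1 of the 10 and 7 of the 86 other pathway genes lower. Over all genes tested 3.58% were called lower and 0.331% higher. Among the other pathway and marker genes named, Nrros, Ccn5 and Lum were called lower as well, and Crisp1, high in WT CD replicate 2 and HoipA-KO HFD replicate 1, was called higher. The value is the log2 fold change of HoipA-KO against WT on HFD minus that on CD. It was -1.44 (edgeR adjusted p = 0.0337) for Tgfbi. It was -2.71 (edgeR adjusted p = 0.0256) for Fn1. The collagen genes Col1a1 and Col1a2 had -1.91 and -1.67 (edgeR adjusted p = 0.0406 and 0.0442). The cell cycle inhibitor gene Cdkn1a had -1.32 (edgeR adjusted p = 0.0293) and Fstl1, a secreted follistatin-like protein, had -1.81 (edgeR adjusted p = 0.0391). Of 9 macrophage markers 5 were called lower by this term, and 8 were lower at an unadjusted edgeR p under 0.05. With 1 library left out the number of genes called for the interaction over the whole table ranged from 1 to 3668.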

How the results depend on the processing

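Of 490 log2 fold changes of the 10 genes under other settings, 466 kept their direction and side of the threshold, as did 497 of 550 with 1 library left out. The cause of the changes below was not tested, except that fewer libraries leave fewer to estimate a spread from. Where a left-out library leaves 1 WT CD library, it was assumed to vary like the other groups.

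With 1 library left out the number of the 10 called was 3 to 5 on CD, 0 to 2 on HFD, 0 to 5 for diet in WT and 0 to 3 for the interaction, and over all genes 279 to 3797, 1045 to 5985 and 1 to 3668 in the last 3. With all 12 libraries 1 of the 10 and 503 of all genes were called on HFD, and in that set without HoipA-KO HFD replicate 1, a choice made after seeing the data, 0 and 20, with 0 and 1 for the interaction. With only the groups compared all genes called were 4208 on CD, and 0 for diet in WT, with 0 of the 10. DESeq2 called 4410 genes on HFD, 4551 and 7 for diet in WT and HoipA-KO, and 2350 for the interaction, with 4 of the 10. Library size alone gave 2 of the 10 for the interaction and shifted the median of all genes on HFD to 0.15. Whether replicate numbers pair the libraries cannot be told, since differently numbered pairs were not computed. Of 18 same-numbered pairs 6 had a correlation of deviations over 0.1 (-0.31 to 0.51), among them all 3 between the HoipA-KO groups (0.14, 0.51 and 0.29). A replicate block called 0 genes between these groups, as without it, 1502 for diet in WT, and 377 with 0 of the 10 for the interaction, where Tgfbi had -1.47 (edgeR adjusted p = 0.0633).

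Signs turned for changes near 0 and for genes high in 1 library. With 1 library left out the ranges on CD were -0.091 to 0.94 for Tgfb3, -0.16 to 0.29 for Ccn2 and -0.17 to 0.63 for Tagln. On HFD they were -0.74 to 1.47 for Acta2 and -0.035 to 1.86 for Tagln. For diet in WT Tgfb3 had -0.065 to 0.99. For diet in HoipA-KO they were -0.18 to 0.13 for Tgfb1, -0.029 to 0.27 for Tgfb3, -0.34 to 0.20 for Tgfbr1, -0.038 to 1.85 for Tagln, -0.0076 to 0.86 for Postn and -0.44 to 0.13 for Ccn2. For the interaction they were -1.47 to 0.0078 for Tgfb2, -0.83 to 0.22 for Tgfb3, -0.36 to 1.76 for Acta2 and -0.20 to 1.63 for Tagln. Protein-coding genes alone gave -0.0062 for Ccn2 on CD, and library size alone 0.047 for Tgfb1 between diets in HoipA-KO. All 12 libraries without HoipA-KO HFD replicate 1 gave -0.77 for Acta2 and -0.071 for Tagln on HFD, 0.11 for Tgfb1, -0.017 for Tgfb2 and -0.058 for Tagln between diets in HoipA-KO, and interactions of -0.69 for Acta2 and -0.64 for Tagln.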
